A study of Mus musculus with 2 samples.

Results

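The neurofilament and glial intermediate filament genes are 8 genes chosen by name: Nefl, Nefm, Nefh, Ina, Prph, Vim, Nes and Gfap. All 8 were found, once each, among the 43346 gene rows of both tables. The data are total RNA-seq of mouse neural tube, the embryonic origin of the brain and spinal cord, from strain B6NCrl at embryonic day 14.5. There was 1 group of 2 libraries, each from a single tube and 10 ng of RNA. Replicate 2 came from pup 1 of pregnant female 2, and replicate 1 from pup 1 of pregnant female 1. No treatment or allele is labelled, so no contrast between conditions exists. Differences between the libraries describe these 2 libraries, carry no p-value and have no replicate check.

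Intermediate filaments are ropes of coiled-coil proteins that give cells mechanical strength. In axons the light, medium and heavy neurofilament proteins (Nefl, Nefm, Nefh) co-assemble with alpha-internexin (Ina), and their amount helps to set axon calibre. Peripherin (Prph) is typical of neurons with axons outside the central nervous system, such as motor, sensory and autonomic neurons. Vimentin (Vim) and nestin (Nes) form the filaments of dividing neural progenitors and radial glia. Vimentin is also made by fibroblasts and endothelial cells. Glial fibrillary acidic protein (Gfap) takes over in mature astrocytes.

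The expected counts summed to 26025302 for replicate 2 and 33360108 for replicate 1. The labels give the sex of both libraries as male and female pooled. Xist, made from an inactive X chromosome, had 13 counts in replicate 2 and 25148 in replicate 1. The 4 Y-linked genes read had 906 to 1750 counts in replicate 2 and 0 or 1 in replicate 1. These counts are those of a male tube in replicate 2 and a female tube in replicate 1, and go against the pooled label. Sex therefore cannot be told apart from any other difference between the libraries. Markers of some tissues beside the tube also differed, most of them higher in replicate 2 and those of muscle lower. The 8 genes of a meninges and fibroblast list summed to 990 TPM (transcript level per length, scaled to the library) in replicate 2 and 45.4 TPM in replicate 1, and the 11 genes of a sensory ganglion list to 217 TPM in replicate 2 and 63.8 TPM in replicate 1. All 12 genes of a neuron list reached 1 TPM in both libraries and none of them differed by 1.5-fold. Each level below is therefore given for both libraries.

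What the family shares is visible in its coding sequence. The 30 bases below encode the end of the helical rod, a stretch conserved in intermediate filament proteins. Each line is the window of 10 codons that best matches the one of Nefl, read 5′ to 3′ on the coding strand of the GENCODE release 21 transcripts, and capitals mark the 14 bases that all 8 genes share.
Nefl: TACAGaAaacTctTgGAaGgcGAagAgacc
Nefm: TACAGgAaacTccTaGAgGggGAagAgacc
Nefh: TACAGaAagcTccTgGAaGgcGAagAgtgt
Ina: TACAGgAagcTccTgGAaGgtGAagAgacg
Nes: TACAGgActcTgcTgGAgGctGAgaActct
Prph: TACAGgAagcTacTgGAaGggGAggAgagc
Vim: TACAGgAagcTgcTgGAaGgcGAggAgagc
Gfap: TACAGgAaatTgcTgGAgGgcGAagAaaac

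Between 23 and 25 of the 30 bases matched Nefl in the other genes, except in Nes, where 17 did. The exon structure of the window splits the family. In Nefl, Nefm, Nefh, Ina and Nes an intron lies after the fifth base shown, and in Prph, Vim and Gfap the window is unbroken and its exon ends 2 bases after it. The window of Nefl spans chr14:68086094-68086511 with its intron (GRCm38, plus strand), and that of Vim lies at chr2:13580207-13580236 (plus strand). In the transcripts read here, such as Nefl-201 and Vim-201, the first set has 3 or 4 exons and the second has 9. Coding length ran from 1290 bases in Gfap to 5592 in Nes. Nefh holds 51 in-frame runs of codons for lysine, serine and proline, the phosphorylation repeat of the neurofilament tail, whereas Nes holds 5, Nefm 4 and the other 5 genes none.

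Of the 8 genes, 7 reached 1 TPM in both libraries, and 60.8% of 21474 protein-coding rows did so. The order of their levels was the same in both libraries: Nefl, Ina, Vim, Nefm, Prph, Nefh, Nes and Gfap, from highest to lowest. Of the 7 neighbour pairs in that order, 3 had ranges that overlapped between libraries, namely Nefl and Ina, Ina and Vim, and Nefm and Prph. Of the 8 genes, 5 averaged above 100 TPM, against a median of 21.2 TPM over the 13047 protein-coding genes that reached 1 TPM in both libraries.

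**Figure D1:**
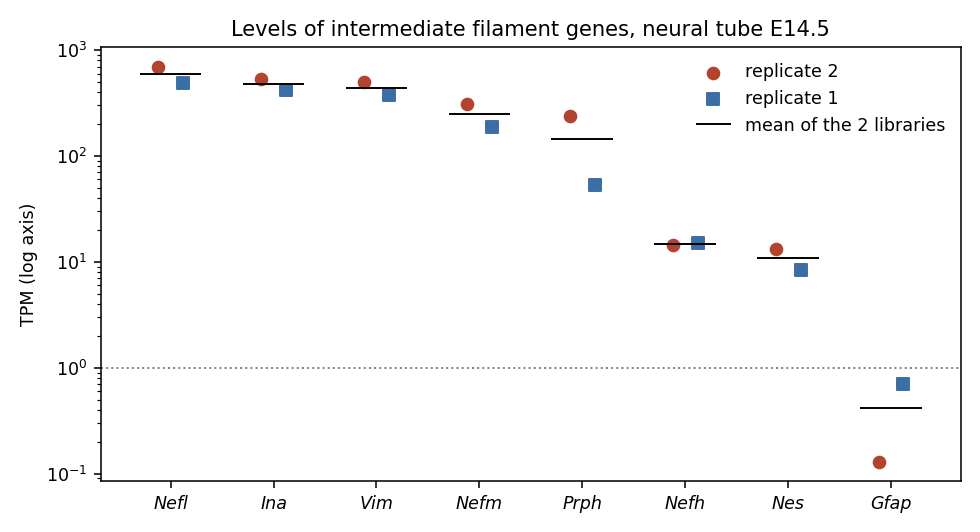
Level of each gene in TPM (log axis) in replicate 2 (circles) and replicate 1 (squares), with the mean of both as a bar and 1 TPM as a dotted line. Nefl stands highest at 692 TPM in replicate 2 and 488 TPM in replicate 1. On the log axis Prph has the widest gap among the genes above 1 TPM, and Gfap lies under the line in both libraries.

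The light chain was the leading filament transcript. Nefl (ENSMUSG00000022055.7, chromosome 14, 68083863 to 68089095, GRCm38), which forms the core of the neurofilament, had 692 TPM in replicate 2 and 488 TPM in replicate 1, a mean of 590 ± 144 (SD, n = 2). This was above 98.8% of the detected protein-coding genes. Ina (ENSMUSG00000034336.3, chromosome 19, 47014698 to 47025327), which appears before the other subunits in developing central neurons, had 533 TPM in replicate 2 and 422 TPM in replicate 1, a mean of 478 ± 78.2. The ranges of Nefl and Ina overlapped, though Nefl was higher within each library, by 1.30-fold in replicate 2 and 1.16-fold in replicate 1.

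Nefm (ENSMUSG00000022054.7, chromosome 14, 68082590 to 68124846), whose tail forms side arms, had 310 TPM in replicate 2 and 186 TPM in replicate 1, a mean of 248 ± 87.8. Nefh (ENSMUSG00000020396.8, chromosome 11, 4938754 to 4948064), the heavy subunit with the longest side arms, had 14.3 TPM in replicate 2 and 15.2 TPM in replicate 1, a mean of 14.8 ± 0.622. It therefore lay far below the other subunits, and its range did not overlap with theirs. Per 100 TPM of Nefl there were 44.8 TPM of Nefm in replicate 2 and 38.1 in replicate 1, 77.0 and 86.5 TPM of Ina, and 2.07 and 3.11 TPM of Nefh.

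Seen as parts of the summed TPM of these 4 subunit genes, Nefl had a similar share in both libraries. The shares of Ina, Nefm and Nefh differed more in proportion. Nefl held 44.7% in replicate 2 and 43.9% in replicate 1, Ina 34.4% and 38.0%, Nefm 20.0% and 16.7%, and Nefh 0.925% and 1.37%. The share of Nefl differed by less than 1 percentage point. These are shares of transcripts, and the protein was not measured.

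**Figure D2:**
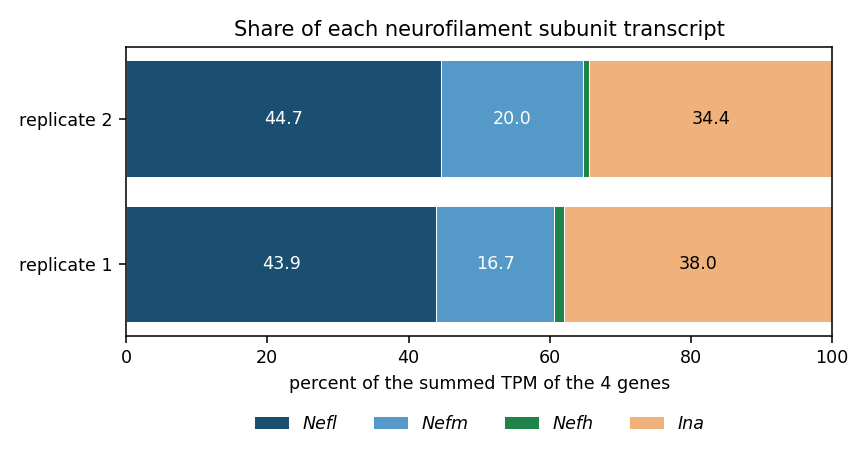
Share of Nefl, Nefm, Nefh and Ina in their summed TPM (percent, from 0), with replicate 2 above replicate 1. Nefl holds 44.7% in replicate 2 and 43.9% in replicate 1, and Nefh is the thin band of 0.925% and 1.37%.

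Nefl and Nefm lie side by side on chromosome 14 on opposite strands. A minor transcript, Nefm-202, runs on past the usual end of Nefm and across Nefl, where its exons cover 1108 exonic bases of Nefl on the other strand. It was assigned 263 counts in replicate 2 and 246 in replicate 1, which is 1.58% and 1.82% of the TPM of Nefm. The strand setting of the counting is not given in the sources used here. Whether reads of Nefl and Nefm-202 were told apart there is therefore not known. Ina shares 456 bases with Nt5c2 on the other strand, which had 46.4 TPM in replicate 2 and 45.4 TPM in replicate 1.

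Prph, peripherin (ENSMUSG00000023484.9, chromosome 15, 99055174 to 99058978), had 239 TPM in replicate 2 and 53.3 TPM in replicate 1, a mean of 146 ± 131. Per 100 TPM of the 4 subunit genes this is 15.4 TPM in replicate 2 and 4.79 TPM in replicate 1. By ratio, Prph was the filament gene furthest apart between the libraries among those above 1 TPM. In TPM the SD of Nefl, 144, was larger.

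The transcripts of Prph differ by intron 4. Prph-202 keeps this intron, a form known in mouse, and Prph-201 removes it. The intron lies at chr15:99056937-99057032 (GRCm38, plus strand) and is shown 5′ to 3′ because it tells the transcripts apart, with its splice-site dinucleotides in capitals.
Prph intron 4: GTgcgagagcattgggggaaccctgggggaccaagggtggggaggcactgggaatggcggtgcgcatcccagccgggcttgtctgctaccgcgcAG

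It is 96 bases long, a multiple of 3. Prph-202 took 4.19% of the TPM of Prph in replicate 2 and 3.74% in replicate 1, or 9.99 and 1.99 TPM. The share of the intron-keeping transcript was thus similar in both libraries, while the level of the gene differed.

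Vim, vimentin (ENSMUSG00000026728.5, chromosome 2, 13573927 to 13582826), had 501 TPM in replicate 2 and 378 TPM in replicate 1. Part of this level was assigned to a short transcript annotated as a retained intron, Vim-203, which is 535 bases long. Vim-203 held 32.7% of the TPM of Vim in replicate 2 and 38.4% in replicate 1, but 10.1% and 12.6% of its counts, because TPM divides by length. It shares all but the first 52 bases with the spliced transcript Vim-201. Those bases, at chr2:13579369-13579420 (plus strand), end intron 4, and capitals mark the splice-site dinucleotide.
Vim end of intron 4: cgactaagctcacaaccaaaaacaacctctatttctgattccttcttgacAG

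From protein-coding transcripts alone, Vim had 335 TPM in replicate 2 and 231 TPM in replicate 1, a mean of 283 ± 73.4. It then lay near Nefm and no longer near Ina, though still above Nefm in each library. Its coding transcripts were split between Vim-201, with 161 TPM in replicate 2 and 117 TPM in replicate 1, and Vim-206, with 174 and 114 TPM. Vim-206 starts later and lacks exon 8. The skipped exon, at chr2:13581613-13581698 (plus strand), encodes part of the tail that follows the rod. Its length of 86 bases is not a multiple of 3.
Vim exon 8: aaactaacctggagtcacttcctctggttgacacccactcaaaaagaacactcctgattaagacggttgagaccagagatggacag

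The authors' credibility intervals of TPM for Vim-201 ran from 143 to 164 in replicate 2 and from 106 to 121 in replicate 1. Those of Vim-206 ran from 156 to 181 and from 102 to 119, so within each library the intervals of both transcripts overlapped.

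Nes, nestin (ENSMUSG00000004891.12, chromosome 3, 87971078 to 87980451), which co-assembles with vimentin in progenitors, had 13.2 TPM in replicate 2 and 8.43 TPM in replicate 1, a mean of 10.8 ± 3.39. Per 100 TPM of Vim there were 2.64 TPM of Nes in replicate 2 and 2.23 TPM in replicate 1. The ranges of Nes and Nefh did not overlap, though in replicate 2 Nefh was 1.08-fold higher. Nes had a split among transcripts that differed between libraries. Nes-201 held 64.9% of its TPM in replicate 2 and 23.4% in replicate 1, whereas Nes-203 held 17.1% and 53.7%.

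Apart from a longer start of Nes-201, these transcripts differ by 1 repeat unit of 132 bases in the last exon of Nes-201, present in Nes-201 and absent from Nes-203. The unit is printed with the one that follows it in both transcripts, and capitals mark the bases that differ between them.
Nes unit at chr3:87976581-87976712: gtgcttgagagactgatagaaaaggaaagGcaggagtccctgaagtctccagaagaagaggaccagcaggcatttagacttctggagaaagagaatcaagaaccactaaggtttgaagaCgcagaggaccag
Nes unit at chr3:87976713-87976844: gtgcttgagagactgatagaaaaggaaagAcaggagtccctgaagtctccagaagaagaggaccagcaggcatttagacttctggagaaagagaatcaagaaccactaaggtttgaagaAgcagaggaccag

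The units are identical at 130 of 132 bases. Of the 6027 windows of 100 bases in Nes-201, 226 do not occur in Nes-203, and of the 5859 windows in Nes-203, 58 do not occur in Nes-201. Reads from the rest of the transcript cannot tell them apart. With 1016 counts in replicate 2 and 825 in replicate 1 for the whole gene, the authors' credibility intervals were wide. They ran from 6.37 to 10.3 TPM in replicate 2 and from 0.724 to 3.96 TPM in replicate 1 for Nes-201, and from 0.0635 to 3.91 TPM and from 2.35 to 5.70 TPM for Nes-203. The intervals of the libraries did not overlap for Nes-201 and overlapped for Nes-203. Within replicate 2 the intervals of both transcripts were apart, and within replicate 1 they overlapped, so their order was not set there.

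**Figure D3:**
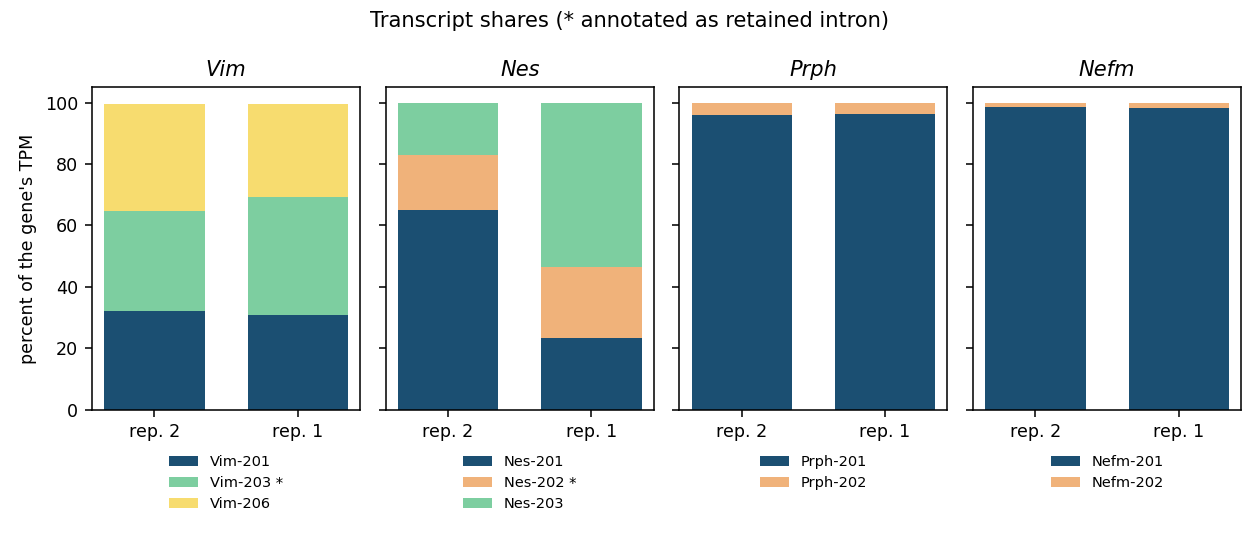
Share of each transcript in the TPM of Vim, Nes, Prph and Nefm (percent, from 0), with replicate 2 left of replicate 1 and transcripts under 1% left out. Vim is split among 3 transcripts in both libraries, Nes-201 holds 64.9% in replicate 2 and 23.4% in replicate 1, and Prph and Nefm each have 1 transcript above 95%.

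Gfap (ENSMUSG00000020932.10, chromosome 11, 102887336 to 102900912) had 0.13 TPM in replicate 2, from 5 counts, against 0.7 TPM from 36 counts in replicate 1. It was the only one of the 8 under 1 TPM. Its counts were too few to compare its transcripts. It lies within the span of the non-coding gene Gm26668 on the other strand, which had 0.96 TPM in replicate 2 and 1.37 TPM in replicate 1. All 8 genes of an astrocyte list reached 1 TPM in both libraries, led by Sparcl1, at 258 TPM in replicate 2 and 294 TPM in replicate 1, and Aldoc, at 202.9 and 280.2 TPM.

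Summed over genes, the neuronal filaments (Nefl, Nefm, Nefh, Ina and Prph) reached 1788 TPM in replicate 2 and 1165 TPM in replicate 1. The glial and progenitor filaments (Vim, Nes and Gfap) reached 515 TPM in replicate 2 and 387 TPM in replicate 1. Nearly all of this was Vim, with 501 TPM in replicate 2 and 378 TPM in replicate 1. Vim is also made by fibroblasts and endothelial cells, so the sums do not measure a balance of neurons and glia. The neuronal sum was 3.47-fold the glial sum in replicate 2 and 3.01-fold in replicate 1, a log2 difference of 1.69 ± 0.147 (SD, n = 2). With protein-coding transcripts alone it was 2.33, and with medians of log2(TPM + 1) over the genes in place of sums it was 4.38. In bulk tissue, fewer cells of a type and less RNA per cell cannot be told apart.

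The libraries were then compared gene by gene on expected counts, with library sizes scaled by TMM (trimmed mean of M-values). Intervals in square brackets are exact 95% intervals of counting error only. Of the 8 genes, 4 differed by at least 1.5-fold, against 19.2% of the 17623 genes whose counts averaged 10 or more. Past 2-fold were 2 of the 8, Prph and Gfap, against 8.69% of those genes. Prph, Nefm and Nes were higher in replicate 2, a direction in which 10.7% of all genes passed, and Gfap was lower, as were 8.53%. Among genes whose counts averaged 100 or more, 10.1% passed in either direction, and 3 of the 7 filament genes among them did. Over the 8 genes the log2 ratio, replicate 2 over replicate 1, had a median of 0.40, and over all genes of -0.01.

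Prph had 5983 counts in replicate 2 and 1806 in replicate 1. Its ratio was 4.19 [3.98 to 4.42]. Of 6453 protein-coding genes whose counts averaged 1000 or more, 16 had a higher ratio. Nefm, with 15043 counts in replicate 2 and 12212 in replicate 1, had a ratio of 1.56 [1.52 to 1.60]. The interval lies just above 1.5, so the position of Nefm relative to that threshold is narrow.

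The other neurofilament genes differed less. The ratio was 1.33 [1.31 to 1.35] for Nefl, with 33967 counts in replicate 2 and 32456 in replicate 1, and 1.18 [1.16 to 1.20] for Ina, with 25051 and 26876 counts. Nefh, with 835 counts in replicate 2 and 1200 in replicate 1, had a ratio of 0.881 [0.806 to 0.963], which turns to 1.29 under spike-in scaling. The intervals of Nefl, Nefm, Nefh and Ina do not overlap, so by counting error alone the subunit genes did not differ between the libraries by a single factor.

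Nes had a ratio of 1.56 [1.42 to 1.71], an interval that includes 1.5, and Vim, with 10540 counts in replicate 2 and 10177 in replicate 1, of 1.31 [1.28 to 1.35]. Gfap had a ratio of 0.188 [0.0539 to 0.450]. Scaling by spike-in RNA in place of TMM raised every log2 ratio by about 0.55, the median of all genes included. Under it 46.5% of all genes passed 1.5-fold and 7 of the 8 filament genes did. The small negative medians of the neuron, partner and other filament lists turn positive under it.

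**Figure D4:**
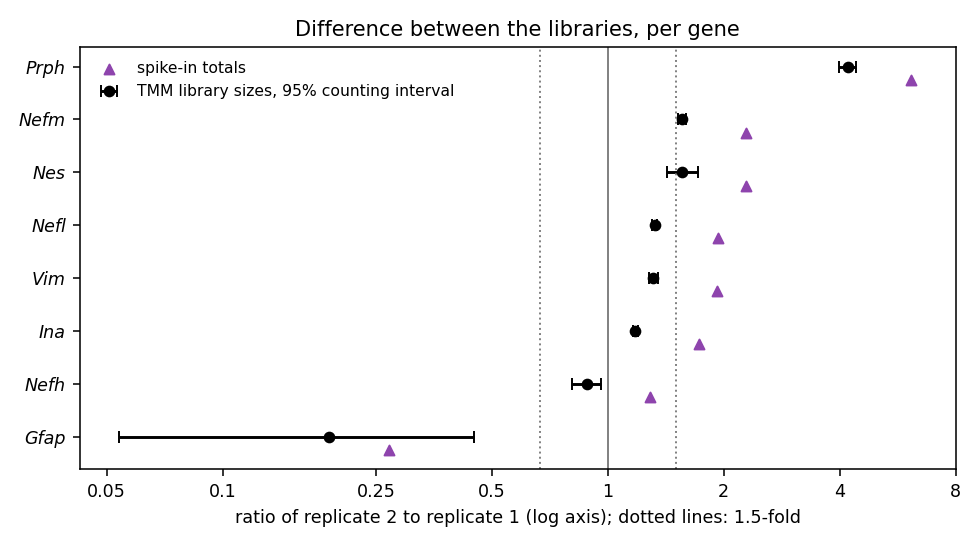
Ratio of replicate 2 to replicate 1 for each gene (log axis) with its 95% counting interval (circles, TMM library sizes) and under spike-in scaling (triangles), with dotted lines at 1.5-fold. Prph stands apart at 4.19, Nefm and Nes lie just past the right line, and Gfap lies left of the others with the widest interval.

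Markers of several cell types differed between the libraries alongside these genes. In the sensory ganglion list 9 of 11 genes passed 1.5-fold, all of them higher in replicate 2, and the median log2 ratio was 4.37. Ntrk3, a neurotrophin receptor gene of the list, had 31.1 TPM in replicate 2 and 30.0 in replicate 1. In the motor neuron list 2 of 8 were higher, Isl1 with 70.2 TPM in replicate 2 and 23.6 in replicate 1 and Aldh1a2 with 57.5 and 9.50. The motor neuron list summed to 233 TPM in replicate 2 and 122 TPM in replicate 1. Most of that difference lay in Isl1 and Aldh1a2. The remaining genes of the list did not pass 1.5-fold, with ratios from 0.797 to 1.20. The highest gene of the list, Foxp1, had 55.1 TPM in replicate 2 and 41.2 in replicate 1.

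In the sympathetic list 2 of the 3 genes that averaged 10 counts or more were higher in replicate 2, and all 5 summed to 24.5 TPM in replicate 2 and 3.36 TPM in replicate 1. Th had 22.4 TPM in replicate 2 and 1.31 in replicate 1 and Phox2a 1.5 and 1.9. The other gene past 1.5-fold was Dbh, which makes noradrenaline, with 19 counts in replicate 2 and 4 in replicate 1. In the Schwann cell list 8 of 9 genes were higher in replicate 2, among them Gfra3 with 20.3 TPM in replicate 2 and 1.51 in replicate 1. That list summed to 72.6 TPM in replicate 2 and 17.1 TPM in replicate 1. Peripherin is known from sensory, sympathetic and motor neurons. The part of these cells in the difference of Prph was not tested.

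For the pan-neuronal genes the picture was another. None of the 12 neuron genes passed 1.5-fold and their median log2 ratio was -0.15, with sums of 6684 TPM in replicate 2 and 6868 TPM in replicate 1. Tubb3, a neuronal tubulin, had 1308 TPM in replicate 2 and 1292 in replicate 1 and Gap43, of growth cones, 1128 and 1195. The ratios of Nefl, Nefm, Ina and Prph were above 1 beside them, and that of Nefh was below 1.

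Vim and Nes were accompanied by lists of several kinds. All 8 meninges and fibroblast genes were higher in replicate 2, by a median log2 ratio of 4.16, led by the collagen genes Col3a1 with 419 TPM in replicate 2 and 9.70 in replicate 1 and Col1a2 with 215 and 6.42. All 9 endothelial genes were higher, with Cldn5 at 90.0 TPM in replicate 2 and 35.7 in replicate 1 and Esam at 34.7 and 19.0. The list summed to 220.1 TPM in replicate 2 and 95.6 TPM in replicate 1. Of 7 pericyte genes 2 were higher, and its leading members were Rgs5, with 20.1 TPM in replicate 2 and 15.2 in replicate 1, and Pdgfrb, with 14.5 and 6.80. The list summed to 63.0 TPM in replicate 2 and 42.5 TPM in replicate 1. Of 7 microglia genes 4 were at least 1.5-fold higher. They were led by C1qb with 40.7 TPM in replicate 2 and 22.3 in replicate 1 and Tyrobp with 32.8 and 18.4. That list summed to 148 TPM in replicate 2 and 84.4 TPM in replicate 1.

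Of 9 radial glia and progenitor genes none passed 1.5-fold, and their median log2 ratio was 0.14. The highest were Fabp7 at 1812 TPM in replicate 2 and 1772 in replicate 1 and Slc1a3 at 186 and 162. Among the rest Sox2, with a ratio of 1.49 [1.30 to 1.71], Hes1, with 1.48 [1.21 to 1.83], and Hes5, with 1.39 [1.26 to 1.54], came closest to 1.5-fold.

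The 8 genes of dividing cells had a median log2 ratio of 0.47, and 2 of them passed 1.5-fold, higher in replicate 2. Apart from Pcna, at 0.941 [0.883 to 1.00], the ratios ran from 1.26 to 1.62 with intervals above 1. The highest genes by level were Pcna, with 82.3 TPM in replicate 2 and 80.8 in replicate 1, and Mcm6, with 48.5 and 36.2. The progenitor list summed to 2181 TPM in replicate 2 and 2079 TPM in replicate 1, and the dividing-cell list to 243 and 191 TPM. The part of any of these cell types in the levels of Vim and Nes was not tested.

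Beside Gfap, 3 of 8 astrocyte genes passed 1.5-fold, named after their values were seen. The water channel gene Aqp4 was lower in replicate 2, with 3.61 TPM in replicate 2 and 13.3 in replicate 1, while Gja1, with 88.9 and 29.5, and S100b, with 4.63 and 1.67, were higher. The astrocyte genes past 1.5-fold thus did not all share the direction of Gfap, and the list summed to 673 TPM in replicate 2 and 733 TPM in replicate 1. Whether astrocytes played a part in the difference of Gfap was not tested. Skeletal muscle genes were at least 1.5-fold lower in replicate 2 for 5 of 7. They were led by Acta1 with 7.36 TPM in replicate 2 and 18.0 in replicate 1 and Mylpf with 6.43 and 9.36. Mylpf passed on expected counts, while its TPM values differed by less than 1.5-fold.

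**Figure D5:**
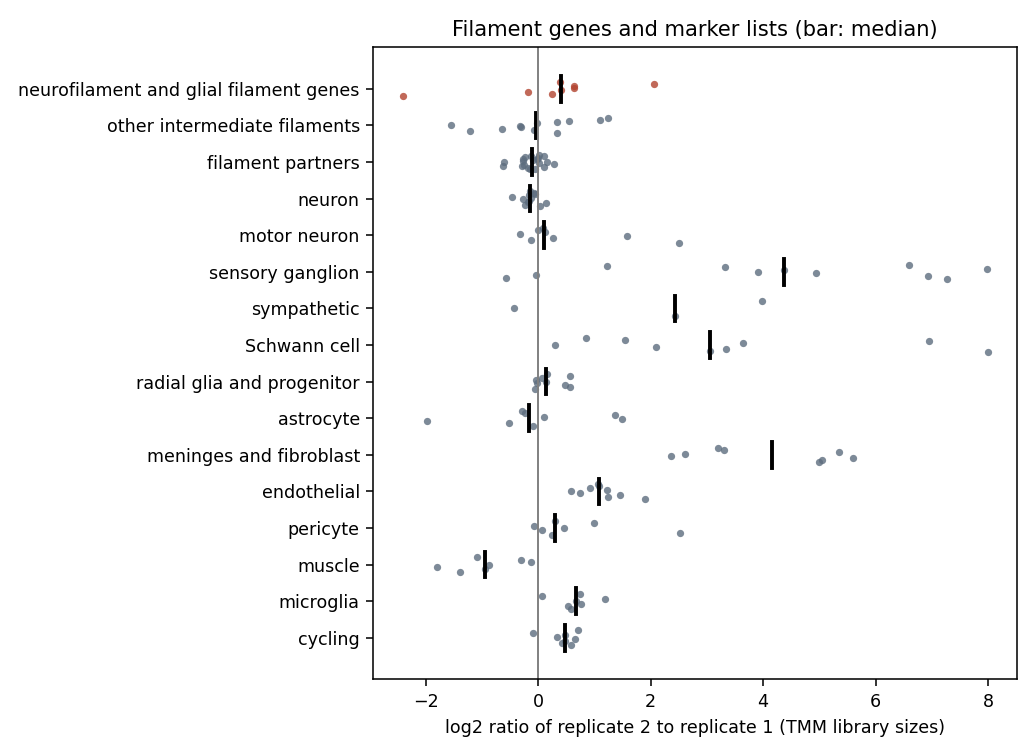
Log2 ratio of replicate 2 to replicate 1 (TMM library sizes) for each gene averaging 10 counts or more (points) and the median of each list (bars). The filament genes have a median of 0.40, the neuron list lies close to 0 and the meninges and sensory ganglion lists lie furthest to the right.

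Most other intermediate filament genes were low in this tissue, the lamin genes aside. Of 17, 8 reached 1 TPM in both libraries and the TPM of the 17 summed to 98.5 in replicate 2 and 87.9 in replicate 1, against 2302 and 1552 for the 8 filament genes above. The lamin genes of the nuclear envelope were highest, with Lmna at 34.4 TPM in replicate 2 and 33.7 in replicate 1, Lmnb1 at 21.9 and 16.3 and Lmnb2 at 13.2 and 8.54, followed by Krt10, a keratin of differentiated epidermis, at 8.94 and 10.4. Of the 12 that averaged 10 counts or more, 5 passed 1.5-fold, 2 of them higher in replicate 2 and 3 lower. Over all genes the shares given above were 19.2% in either direction, 10.7% higher and 8.53% lower.

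The higher genes were Synm, synemin, a large partner of vimentin and desmin, with 6.40 TPM in replicate 2 and 2.64 in replicate 1 and a ratio of 2.37 [2.09 to 2.69], and Sync, syncoilin, with 2.85 and 1.25 TPM. The lower ones were Krt1 with 5.84 TPM in replicate 2 and 8.52 in replicate 1, Bfsp2, a lens filament gene, with 0.82 and 1.82, and the epithelial keratin gene Krt8 with 0.43 and 1.21. Krt1 passed on expected counts, while its TPM values differed by less than 1.5-fold. The median log2 ratio of the 12 was -0.04.

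A partner list held genes for proteins that link, move, modify or remove filaments, and the microtubule-associated genes Mapt and Map1b. Mapt is also in the neuron list. Of 21 listed, 20 had a row and each reached 1 TPM in both libraries. The highest were Mapt, the microtubule protein tau, with 744 TPM in replicate 2 and 779 in replicate 1, Map1b, of growing axons, with 633 and 715, Stub1, a ubiquitin ligase, with 204 and 208, and Kif5c, a kinesin motor subunit, with 207 and 173. None of the 20 was 1.5-fold higher in replicate 2 and 2 were 1.5-fold lower, against 10.7% and 8.53% of all genes. One of the 2 lower genes was the cytoskeletal linker Macf1, with 90.2 TPM in replicate 2 and 111 in replicate 1. Its ratio on expected counts was 0.656 [0.638 to 0.674]. Under spike-in scaling the ratio was 0.959, and the TPM values of Macf1 differed by less than 1.5-fold. The median log2 ratio of the list was -0.11.

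Finally, the genes nearest in level over both libraries were found by Euclidean distance of log2(TPM + 1), among 21473 protein-coding genes. Nearest to Prph was Anxa2, a membrane-binding annexin, at 230.4 TPM in replicate 2 and 64.1 TPM in replicate 1 and a distance of 0.268. Laptm4a and Selenop followed at distances of 0.557 and 0.568. Nefl had H2afz, Cdk4 and Rps9 at 0.182 to 0.196, and Vim had Prkar1a, Rpl10 and Psma3 at 0.0915 to 0.142. With 2 libraries such likeness is one of level and says little of pattern.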

How the data were processed

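The texts deposited with the files name mm10 and GENCODE release 4 for mouse. No aligner, quantifier or strand setting is named in what was used here. Deposited values in the expected count columns are estimated numbers of reads, unnormalised, as the file headers have it. The authors' TPM and FPKM columns are scaled for depth and for effective length, which is the length less 99 bases. The authors' percent columns hold the share of a transcript in the TPM of its gene. Their deposited score columns are the bounds of a credibility interval of TPM, whose level is not stated.

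GENCODE release 21 on GRCm38, which is mm10, supplied symbols, transcript types, 1-based coordinates and transcript sequences. Of 43346 gene rows, 42462 matched. Prph-201 and Prph-202 differ in total length between the releases.

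Expected counts were rounded to whole numbers. Ratios used gene rows, TMM library sizes from edgeR 4.0.16 (R 4.3.3) and a prior count of 0.5, with exact Clopper-Pearson intervals of 95%. Amplified reads can repeat a molecule, so intervals cover counting error only. No test was run, since there is 1 group. The ratio step was tested on simulated data. DESeq2 1.42.0 and spike-in totals gave alternatives. Other steps used Python 3.11.15, pandas 2.3.3, SciPy 1.17.1 and Biopython 1.88.

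The filament genes and all lists were chosen with earlier results of these data known. The rule named the 4 highest of each pathway list and those past 1.5-fold, the 2 highest of each marker list and the 3 nearest genes. Aldh1a2, Dbh, Sox2, Hes1, Hes5, Aqp4, Gja1 and S100b fall outside it and were picked with their values in view. Eppk1 had no row. A few listed genes are not reported here by name.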

Additional observations from a re-analysis of the deposited data

How the results depend on the processing

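The 2 libraries of 1 group give no test, so stability here means direction and size. Relative to the values reported, the log2 difference of neuronal and glial filaments (1.69) was 4.38 with medians of log2(TPM + 1) in place of sums and 2.33 with protein-coding transcripts alone, an alternative chosen after seeing the data. It ran from 1.59 to 1.80 over single libraries. The share of Nefl in the neurofilament sum (44.3%) was 45.0% on expected counts with no length correction and 43.9% to 44.7% over single libraries. The count of 7 genes at 1 TPM stayed at 7 at 0.5 and 5 TPM and in each library alone. The 4 filament genes past 1.5-fold became 7 under spike-in scaling and 2 at 2-fold, and the 2 partner genes became 4 under spike-in scaling. The log2 ratio of Nefh (-0.18) turned to 0.37 under spike-in scaling, which shifts every gene by construction. It was the 1 reversal among 180 alternative values. Another 34 moved, that is, left the SD of the libraries, the counting interval or a 1.5-fold range of the count. Of 72 alternative log2 ratios without spike-in scaling, 17 moved. On deposited TPM the ratios were 1.42 for Nefl, 1.26 for Ina, 1.67 for Nefm and 4.48 for Prph, outside their counting intervals. Those of Nefh, Vim, Nes and Gfap stayed inside. Depth limits Gfap, with 5 and 36 counts, and the transcripts of Nes. No paired analysis was possible because there is only 1 group.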
